A study of Homo sapiens with 54 samples.

Results

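The genes described here are a module of the interferon response and antigen presentation, 38 genes listed by symbol, followed in NCI-H460, a widely used cell line grown from a large cell lung carcinoma. A member was taken to be measured where a row of the value table carried its symbol and no other, and the row with the highest mean stood for it. By that rule 34 of the 38 genes were measured, among 18417 genes in all. STAT2, HLA-B, HLA-C and HLA-E had no such row and are not analysed here. Rows shared between symbols numbered 6 for HLA-B and 3 for HLA-C.

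Cells sense foreign or displaced nucleic acid through receptors such as RIG-I, the product of RIGI, and MDA5, the product of IFIH1, and answer by secreting type I interferon. Interferon acts through JAK kinases, the STAT proteins and IRF9, and these switch on a shared set of genes whose products bind viral RNA, degrade it, conjugate the small protein ISG15 to other proteins or load peptides onto MHC class I molecules. Radiation can start this programme in tumour cells through DNA that reaches the cytosol, which is why these genes are often followed after it.

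The 54 arrays formed 18 groups of 3, and the labels call the arrays of a group biological replicates. All cells were kept without serum before treatment. Each group joined 1 of 3 pretreatments with 1 of 3 therapies and 1 of 2 harvest times. The pretreatments were none, nicotine at 5 uM, or cigarette smoke extract diluted to hold 5 uM nicotine. The therapies, given 2 h after the pretreatment, were none, 1 dose of 6 Gy from a cesium source, or 1 uM cisplatin, a platinum drug that crosslinks DNA. Cells were harvested 2 h or 24 h after the therapy step. Untreated cells received neither a pretreatment nor a therapy. All cultures came from 1 line at 1 passage, so that p-values measure the spread between cultures of this line. In RNA from whole cultures, fewer cells that express a gene and less RNA of it per cell cannot be told apart.

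Known target genes of the treatments were checked first. CYP1A1, an enzyme gene driven by the aryl hydrocarbon receptor, was higher with smoke extract by 3.34 ± 0.08 at 2 h and 4.19 ± 0.08 at 24 h on the log2 scale (SE, mean over the 3 therapies). The p53 target CDKN1A was higher after radiation by 1.13 ± 0.09 at 2 h and 0.87 ± 0.09 at 24 h. It was also higher with smoke extract at 2 h, by 0.55 ± 0.09 (limma adjusted p = 8e-06). With cisplatin CDKN1A differed by 0.25 ± 0.09 at 24 h and did not pass the test (limma, adjusted p = 0.104). Of 5 epithelial markers, KRT8, KRT18 and KRT19 stood above the level of olfactory receptor genes, used here as a gauge of background, while EPCAM and CDH1 did not. Among 11 leukocyte markers, 9 lay at that background level, the others being CD14 and CD68. Of 7 fibroblast markers 2 lay at it, while COL1A1, COL1A2, COL3A1, LUM and PDGFRB stood above. Of 6 endothelial markers 5 lay at it, the other being CLDN5. Pearson correlations between arrays of a group ran from 0.979 to 0.996.

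Levels below are log2 values as deposited, and a gene is said to lie in the background range when its mean over the 54 arrays was under 6.06, the level that 95% of 341 olfactory receptor genes fall below. In that range lay 14 members and 30.5% of all genes. They were IFIT1, IFIT2, IFIT3, OAS2, OASL, MX1, MX2, RSAD2, BST2, XAF1, DDX60, HERC5, IFIH1 and CXCL10, which include the genes most often used to read out an interferon response. For these a low level cannot be separated from no transcript, and a change is at best a lower bound.

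RefSeq promoters, the 250 bases before the start site on build GRCh38.p14, were matched for 28 of the 34 measured members. Each gene had 1 window. Where more than 1 start was annotated, the most upstream was used and the others were not searched. The interferon-stimulated response element was searched as 2 blocks of GAAA with any 2 bases between them, and the gamma-activated site as TTCNNNGAA, on both strands. At least 1 copy of the paired GAAA blocks was present in 19 of the 28 member promoters (67.9%) and in 839 of all 27305 promoters (3.07%). TTCNNNGAA was present in 7 of the 28 (25%) and in 1846 of all promoters (6.76%). The promoters of 5 members are shown because these genes carry the contrasts described below, OAS1 against its neighbour OAS3, TAP1 against its partner TAP2, and RIGI. Capitals mark the bases that matched a motif, and each sequence reads 5′ to 3′ on the strand of the gene.
OAS1: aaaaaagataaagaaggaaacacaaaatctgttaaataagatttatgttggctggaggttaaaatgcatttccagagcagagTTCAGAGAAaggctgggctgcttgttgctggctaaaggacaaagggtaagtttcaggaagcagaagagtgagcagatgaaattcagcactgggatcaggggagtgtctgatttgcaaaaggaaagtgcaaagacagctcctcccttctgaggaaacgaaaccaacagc
OAS3: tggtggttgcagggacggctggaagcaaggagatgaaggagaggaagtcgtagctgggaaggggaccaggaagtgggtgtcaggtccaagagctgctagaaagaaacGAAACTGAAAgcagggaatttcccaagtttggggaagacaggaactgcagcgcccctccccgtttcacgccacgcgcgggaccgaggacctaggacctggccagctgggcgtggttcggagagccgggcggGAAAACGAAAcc
RIGI: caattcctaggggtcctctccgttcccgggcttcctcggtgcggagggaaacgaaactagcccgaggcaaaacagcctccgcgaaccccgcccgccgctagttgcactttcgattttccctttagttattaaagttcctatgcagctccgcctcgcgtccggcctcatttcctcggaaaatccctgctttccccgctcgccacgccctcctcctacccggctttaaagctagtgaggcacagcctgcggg
TAP1: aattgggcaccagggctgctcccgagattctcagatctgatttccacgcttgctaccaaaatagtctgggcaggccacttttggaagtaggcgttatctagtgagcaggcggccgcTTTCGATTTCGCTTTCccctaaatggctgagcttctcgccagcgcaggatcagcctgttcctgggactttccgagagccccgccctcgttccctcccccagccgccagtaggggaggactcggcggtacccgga
TAP2: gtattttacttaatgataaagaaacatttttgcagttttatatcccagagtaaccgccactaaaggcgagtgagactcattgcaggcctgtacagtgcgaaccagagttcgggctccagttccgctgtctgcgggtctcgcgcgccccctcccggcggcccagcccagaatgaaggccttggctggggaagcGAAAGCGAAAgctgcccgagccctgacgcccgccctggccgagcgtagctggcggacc
The OAS1 window spans chr12:112906712-112906961 on the plus strand and holds 1 copy of TTCNNNGAA, which begins 168 bases before the start. It also holds 2 blocks of GAAA with 1 base between them, a spacing that the search did not cover. The OAS3 window spans chr12:112938224-112938473 on the plus strand and holds 2 copies of the paired GAAA blocks, at 143 and 12 bases before the start. The RIGI window spans chr9:32526197-32526446 on the minus strand and holds neither set of letters, which says nothing of what binds there. Like the OAS1 and OAS3 windows, it holds 2 blocks of GAAA with 1 base between them, which were not counted. The TAP1 window spans chr6:32853705-32853954 on the minus strand, with 2 overlapping copies of the paired GAAA blocks on the opposite strand, at 134 and 128 bases. The TAP2 window spans chr6:32838740-32838989 on the minus strand and holds 1 copy, at 58 bases before the start. A match is a description of the letters and not evidence of binding.

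The first question was whether the members moved together with any agent. At 24 h radiation raised some members and lowered others, smoke extract lowered more than it raised, and cisplatin and nicotine moved few. With radiation, averaged over the 3 pretreatments, 6 members rose and 5 fell of 34, when 32.5% of all genes were called, 15.9% higher and 16.6% lower. Smoke extract, averaged over the 3 therapies, was followed by a rise of 1 member and a fall of 9, when 27.7% of all genes were called, 11.9% higher and 15.7% lower. A call is an adjusted p under 0.05 in limma, with Benjamini-Hochberg adjustment over all 18417 genes. In this fit the share of members called, both directions together, was thus close to the share of all genes with either agent. The median log2 change of the 34 members was 0.06 after radiation, against 0.03 for all genes, and -0.02 with smoke extract, against 0.03 for all genes. With the mean of the olfactory receptor genes as a covariate the split after radiation was 11 higher and 5 lower, when 36.8% of all genes were called in that fit, 19.5% higher and 17.3% lower. Epithelial markers at 24 h had 1 higher and 1 lower of 5 with radiation and 2 higher and 1 lower with smoke extract. Of 7 fibroblast markers, 2 were higher with radiation and 3 with smoke extract, and their mean log2 value per array ran from 6.00 to 6.38 over the 54 arrays. Leukocyte markers rose in 0 and 1 of 11 and endothelial markers in 0 of 6, with means per array from 5.18 to 5.59 and from 5.32 to 5.90. The part of any of these in the members' changes was not tested. Radiation and smoke extract were compared against some of the same arrays, untreated cells among them, so their results are not independent.

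Of the 34 members, 12 were called in none of 27 tests, the 25 comparisons and 2 F tests across the groups of a time. The share of all genes called in none of these tests was not counted, so the 12 cannot be judged as many or few. The members called in no test were IFIT2, IFIT3, IFIT5, IFI27, MX1, MX2, RSAD2, BST2, XAF1, ISG15, CXCL10 and B2M. ISG15 encodes the ubiquitin-like modifier and MX1 a dynamin-like GTPase that blocks viruses. ISG15 stood between 6.19 and 6.86 on all 54 arrays and MX1 between 5.22 and 5.61, in the background range. After radiation at 24 h the change in ISG15 was -0.06 ± 0.07 (SE, 95% interval from -0.20 to 0.07, limma adjusted p = 0.509) and that in MX1 -0.03 ± 0.05 (-0.14 to 0.08, adjusted p = 0.75). With smoke extract at 24 h ISG15 differed by 0.04 (-0.09 to 0.18, adjusted p = 0.634) and MX1 by 0.01 (-0.10 to 0.13, adjusted p = 0.86). Over all 25 comparisons, differences of effects included, the change ran from -0.15 to 0.28 in ISG15, from -0.14 to 0.10 in MX1 and from -0.32 to 0.32 in B2M, with no call. The intervals of ISG15 reach sizes of change that were called in other members. Across the 9 groups of 24 h the F test called 16 of the 34 members (47.1%), and 47.6% of all genes. Above the background range 13 of 20 members were called, and 60.4% of all genes there, and in it 3 of 14 members and 18.4% of all genes. Across the groups of 2 h it called 3 of the 34, OAS1, RIGI and IRF1, and 7.23% of all genes.

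**Figure D1:**
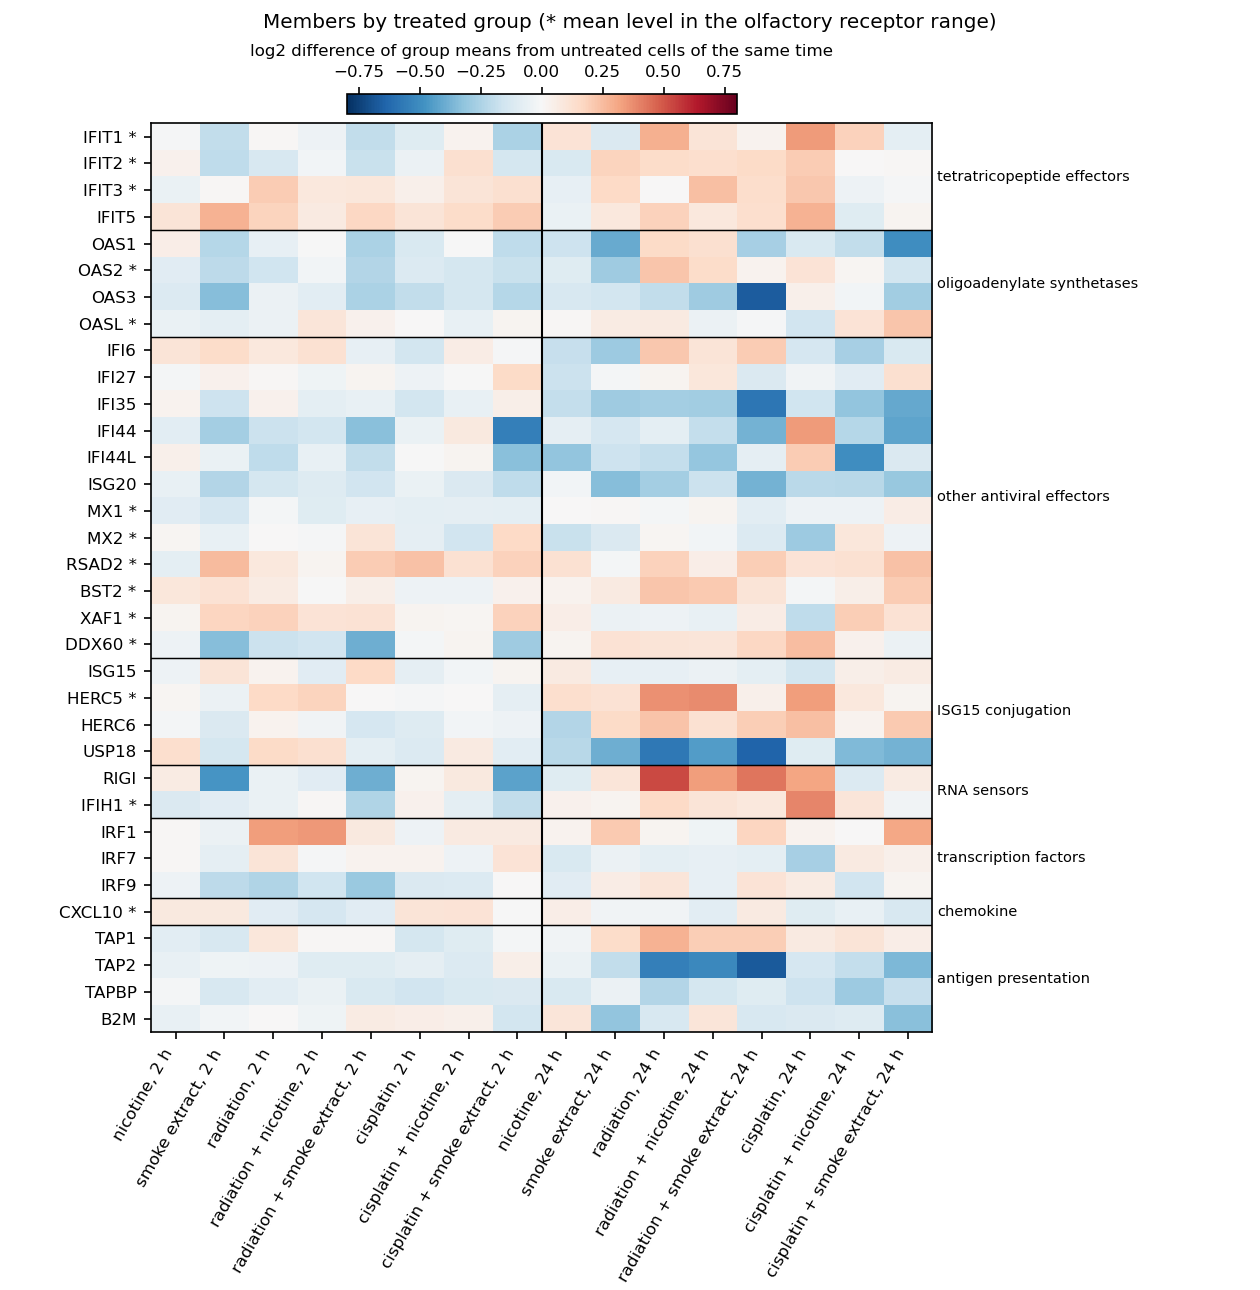
Difference of each treated group's mean (3 arrays) from untreated cells of the same time, as log2 values in colour, with members in rows by role and the 16 treated groups in columns, 2 h on the left and 24 h on the right of the vertical line. An asterisk marks the 14 members whose mean lay in the background range; no column is of 1 colour, and OAS1 and OAS3, or TAP1 and TAP2, differ in colour after radiation at 24 h.

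The oligoadenylate synthetases make the second messenger that activates the nuclease RNase L, which degrades RNA. Radiation at 24 h raised OAS1 and OAS2 and lowered OAS3, whereas smoke extract lowered all of these genes. OAS1 stood at 10.61, 10.55 and 10.64 in untreated cells at 24 h, at 10.73, 10.76 and 10.78 after radiation, at 10.22, 10.15 and 10.24 with smoke extract and at 10.31, 10.28 and 10.42 with smoke extract and radiation. The irradiated arrays lay above their own controls in each of the 3 pretreatments, and the smoke extract arrays below theirs in each of the 3 therapies. Averaged over pretreatments, radiation raised OAS1 by 0.19 ± 0.03 (SE, 9 arrays against 9, limma adjusted p = 1.19e-05), a 1.14-fold difference. Smoke extract changed it by -0.40 ± 0.03 (adjusted p = 3.78e-13), 1.32-fold lower. The 9 arrays with smoke extract ran from 10.01 to 10.42 with a median of 10.22, below every one of the 9 with neither smoke extract nor nicotine, which ran from 10.43 to 10.78 with a median of 10.61.

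OAS3 lies beside OAS1 on chromosome 12 and moved the other way after radiation. Its 3 arrays read 8.50, 8.54 and 8.62 in untreated cells at 24 h, 8.41, 8.44 and 8.21 after radiation, 8.51, 8.37 and 8.33 with smoke extract, and 7.83, 7.95 and 7.88 with both. The arrays with both agents were the lowest of the 9 groups of 24 h and overlapped no other group. The mean change with radiation was -0.29 ± 0.05 (limma adjusted p = 1.17e-05), made of -0.20 alone, -0.16 with nicotine and -0.52 with smoke extract. With smoke extract the mean change was -0.31 ± 0.05 (adjusted p = 5.67e-06). The extra fall of OAS3 with both agents, tested as an interaction, was -0.32 ± 0.13 and did not pass the test (adjusted p = 0.162).

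OAS2, in the background range at a mean of 5.86, followed OAS1 in direction. Its arrays read 5.91, 5.90 and 5.93 in untreated cells at 24 h, 6.12, 6.02 and 6.26 after radiation, and 5.66, 5.53 and 5.70 with smoke extract. None of these 3 groups overlapped another. It rose by 0.26 ± 0.05 with radiation (limma adjusted p = 2.96e-05) and changed by -0.24 ± 0.05 with smoke extract (adjusted p = 0.000129). OASL, a relative without synthetase activity, lay in the background range and was called in neither mean effect.

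**Figure D2:**
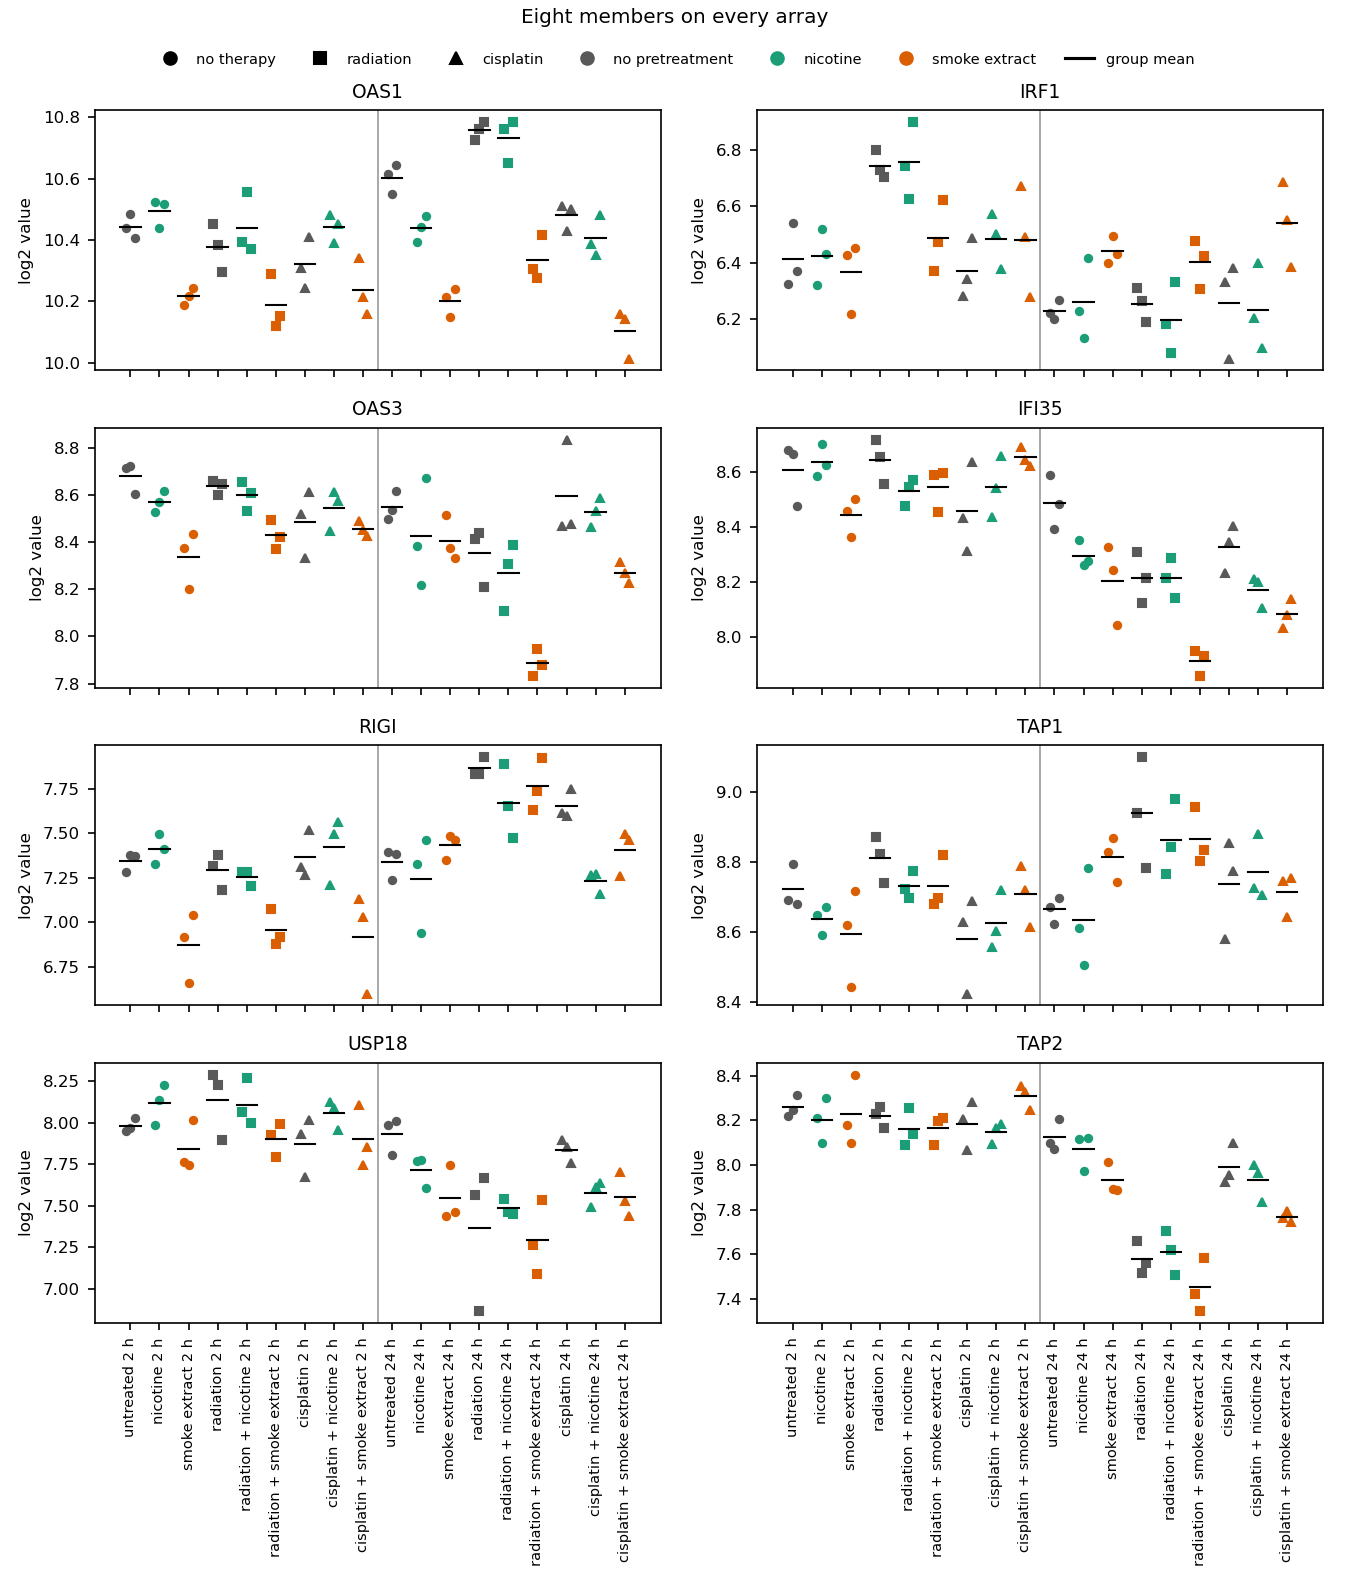
Log2 values of 8 members on each of the 54 arrays, by group of 3, with the group mean as a bar; shape gives the therapy, colour the pretreatment, and the vertical line parts 2 h from 24 h. The smoke extract arrays of OAS1 at 24 h (10.01 to 10.42) lie below all arrays of that time with neither smoke extract nor nicotine (10.43 to 10.78), and the irradiated arrays of TAP2 at 24 h (7.35 to 7.71) below all arrays without radiation.

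Among the sensors of double-stranded RNA, RIGI fell early with smoke extract and rose late after radiation. At 2 h its arrays read 7.28, 7.38 and 7.38 in untreated cells and 6.92, 6.66 and 7.04 with smoke extract. With smoke extract the 9 arrays of 2 h ran from 6.60 to 7.13 with a median of 6.92, all below the 9 arrays that had neither smoke extract nor nicotine, which ran from 7.18 to 7.52 with a median of 7.31. The change was -0.42 ± 0.07 (limma adjusted p = 6.13e-06), and -0.47, -0.34 and -0.45 in cells without therapy, with radiation and with cisplatin. By 24 h smoke extract made a difference of -0.08 (adjusted p = 0.364), and the change from 2 h to 24 h passed the test (0.34 ± 0.10, adjusted p = 0.0175).

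After radiation at 24 h RIGI read 7.83, 7.84 and 7.93, against 7.40, 7.24 and 7.38 in untreated cells. All 3 irradiated arrays lay above the untreated ones, as they did above their controls with nicotine and with smoke extract. The mean rise was 0.43 ± 0.07 (limma adjusted p = 1.22e-06), a 1.35-fold difference, from 0.53 alone, 0.43 with nicotine and 0.33 with smoke extract. IFIH1, which encodes the related sensor MDA5, lay in the background range and was not called in either mean effect at 24 h.

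ISG15 is attached to proteins by HERC5, the main ligase in human cells, and removed by USP18, which also dampens signalling at the interferon receptor. USP18 fell with both agents. Its arrays read 7.99, 7.81 and 8.01 in untreated cells at 24 h, 7.56, 6.87 and 7.67 after radiation, and 7.44, 7.75 and 7.46 with smoke extract. The treated arrays lay below the untreated ones, and the array at 6.87 was the lowest of the 54. USP18 changed by -0.35 ± 0.08 with radiation (limma adjusted p = 0.000224) and by -0.25 ± 0.08 with smoke extract (adjusted p = 0.0118). USP18 has a near-identical copy, so its probes may read both. HERC6, a relative of HERC5, rose by 0.21 ± 0.07 with radiation (adjusted p = 0.0163), and HERC5 differed by 0.18 with an interval from 0.03 to 0.33 (adjusted p = 0.066). Single arrays decided 2 of these calls, HERC6 with radiation without nicotine 24 h replicate 2 (adjusted p = 0.0595) and USP18 with smoke extract without radiation 24 h replicate 3 (adjusted p = 0.0534).

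Of 12 other antiviral effectors, 1 rose and 2 fell with radiation at 24 h, and 3 fell with smoke extract, against the 32.5% and 27.7% of all genes called. IFI35, a protein of the interferon response that also modulates RIG-I signalling, fell with both. It read 8.59, 8.39 and 8.48 in untreated cells at 24 h, 8.31, 8.12 and 8.21 after radiation, 8.33, 8.24 and 8.04 with smoke extract, and 7.95, 7.86 and 7.93 with both. The 3 arrays with both agents were the lowest of the 54. The change was -0.22 ± 0.04 with radiation (limma adjusted p = 0.000116) and -0.28 ± 0.04 with smoke extract (adjusted p = 2.96e-06). ISG20, an RNA exonuclease, read 8.21, 8.09 and 8.09 in untreated cells, 7.90, 7.89 and 7.78 after radiation and 7.73, 7.75 and 7.89 with smoke extract. It changed by -0.16 ± 0.05 with radiation (adjusted p = 0.00669, and 0.0519 after quantile normalization) and by -0.17 ± 0.05 with smoke extract (adjusted p = 0.00312).

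IFI6, a mitochondrial and endoplasmic reticulum protein that blocks flaviviruses, rose with radiation. The 9 irradiated arrays of 24 h ran from 8.87 to 9.51 with a median of 9.19 and their 9 controls from 8.63 to 9.16 with a median of 8.88, so the 2 sets overlapped. The rise was 0.33 ± 0.10 (limma adjusted p = 0.00586), from 0.22 alone, 0.29 with nicotine and 0.50 with smoke extract. IFI44 changed by -0.40 ± 0.11 with smoke extract (adjusted p = 0.00382), of which the cisplatin-treated cells gave -0.76 and cells without therapy -0.14. With the olfactory receptor mean as a covariate the mean change was -0.26 (adjusted p = 0.00758) and that in cisplatin-treated cells -0.34, which was not called (adjusted p = 0.134). The extra fall with cisplatin, tested as an interaction, was -0.63 ± 0.26 (adjusted p = 0.166). DDX60, a helicase thought to aid RIG-I, lay in the background range and changed by -0.28 ± 0.07 with smoke extract at 2 h (adjusted p = 0.0082, and 0.0627 without 4 arrays that stood apart in the mean of the olfactory receptor genes).

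Of the 4 IFIT genes, whose tetratricopeptide proteins bind viral RNA, none rose or fell with radiation at 24 h and IFIT1 fell with smoke extract. Of all genes, 32.5% were called with radiation and 27.7% with smoke extract. IFIT2 and IFIT3 lay in the background range, and so did IFIT1. Its arrays at 24 h ran from 4.96 to 5.23 with smoke extract, with a median of 5.08, and from 5.04 to 5.78 in the cells with neither smoke extract nor nicotine, with a median of 5.31. The ranges overlapped, and the change was -0.27 ± 0.06 (limma adjusted p = 0.00135). IFIT1 ran from -0.42 to 0.34 over the 25 comparisons and was called in 2, the other being smoke extract in cisplatin-treated cells. With radiation the change of IFIT1 was 0.14 (0.01 to 0.27, adjusted p = 0.0946).

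Of the 3 measured transcription factors of the pathway, IRF1, which drives both antiviral and antigen presentation genes, was the sole member called after radiation at 2 h. It read 6.32, 6.54 and 6.37 in untreated cells at 2 h, 6.80, 6.73 and 6.70 after radiation, 6.74, 6.62 and 6.90 with nicotine and radiation, and 6.37, 6.47 and 6.62 with smoke extract and radiation. The irradiated arrays lay above their controls without pretreatment and with nicotine, and overlapped them with smoke extract. The mean rise was 0.26 ± 0.06 (limma adjusted p = 0.00721), a 1.20-fold difference, when 1.35% of all genes were called, 0.559% higher. By 24 h radiation made a difference of -0.03 (adjusted p = 0.79), and the change over time was -0.29 ± 0.08 (adjusted p = 0.00759). With smoke extract IRF1 rose at 24 h by 0.21 ± 0.06 (adjusted p = 0.0046). Its 9 arrays then ran from 6.31 to 6.69 with a median of 6.43, against 6.06 to 6.38 and a median of 6.26. Over the 25 comparisons IRF1 ran from -0.29 to 0.33 and was called in 5. IRF7 and IRF9 were called in none of the mean effects of an agent, and neither was the chemokine CXCL10, which recruits T cells and stood between 3.28 and 4.10 on all arrays.

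Peptides for MHC class I reach the endoplasmic reticulum through a transporter made of 1 TAP1 and 1 TAP2 subunit, and tapasin, the product of TAPBP, holds the class I molecule beside it. Radiation at 24 h raised TAP1 and lowered TAP2. TAP2 read 8.10, 8.07 and 8.21 in untreated cells at 24 h, 7.66, 7.52 and 7.56 after radiation, 7.71, 7.62 and 7.51 with nicotine and radiation, and 7.42, 7.35 and 7.59 with smoke extract and radiation. All 9 irradiated arrays lay below all 9 controls, which ran from 7.89 to 8.21. The change was -0.50 ± 0.04 (limma adjusted p = 6.98e-13), 1.41-fold lower. Smoke extract changed TAP2 by -0.18 ± 0.04 (adjusted p = 0.00128).

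TAP1 read 8.67, 8.62 and 8.70 in untreated cells at 24 h and 8.94, 9.10 and 8.78 after radiation, with no overlap. Its rise with radiation was 0.18 ± 0.05 (limma adjusted p = 0.00171), of which smoke extract-pretreated cells gave 0.05. With smoke extract TAP1 differed by 0.02 (-0.08 to 0.11, adjusted p = 0.81). TAP1 ran from -0.22 to 0.28 over the 25 comparisons and was called in 2, the other being radiation alone. The 3 rows of TAP1 held the same values, and the other rows of TAP2 correlated with the one used at 0.992 or more. B2M, the light chain of every class I molecule, was called nowhere. At 24 h it ran from 10.01 to 10.96, and its change was 0.02 (-0.14 to 0.19, adjusted p = 0.881) with radiation and -0.18 (-0.35 to -0.01, adjusted p = 0.0968) with smoke extract.

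**Figure D3:**
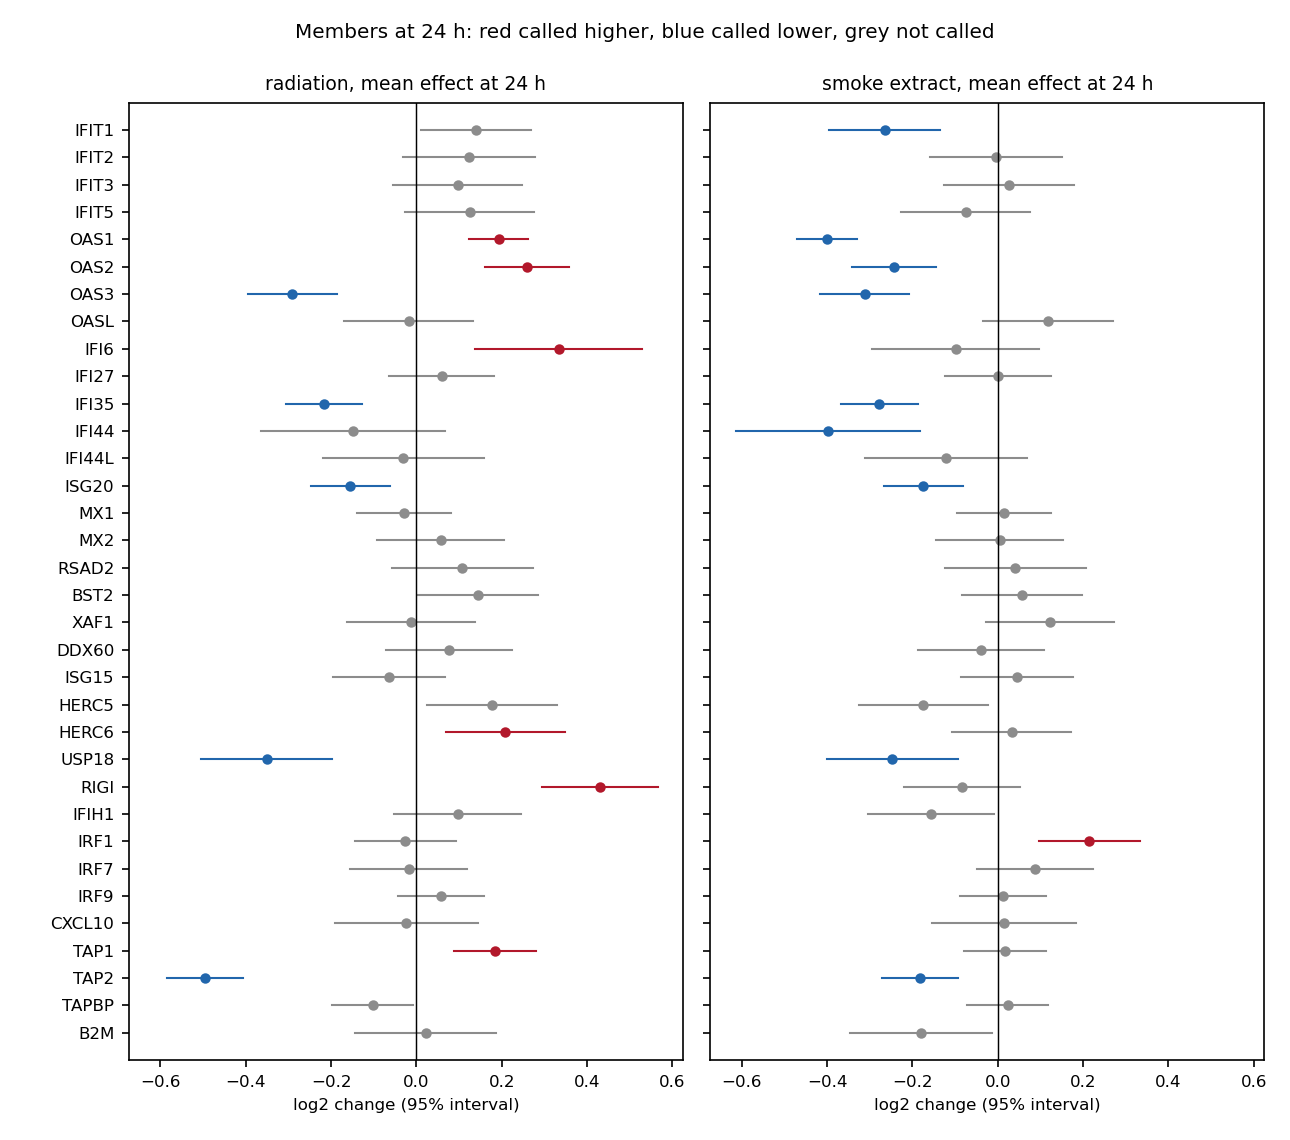
Log2 change of each measured member at 24 h with its 95% interval, for radiation (left, mean over 3 pretreatments) and smoke extract (right, mean over 3 therapies), in red where called higher, blue where called lower and grey where not called. Radiation has 6 red and 5 blue members, from TAP2 at -0.50 to RIGI at 0.43, and smoke extract 1 red and 9 blue, from OAS1 at -0.40 to IRF1 at 0.21.

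At 2 h the called members in the mean effects were IRF1 with radiation and 4 with smoke extract. The latter effect, averaged over therapies, lowered OAS1, OAS3, DDX60 and RIGI and raised none, when 9.28% of all genes were called, 4.22% higher and 5.06% lower. OAS1 changed by -0.17 ± 0.03 (limma adjusted p = 0.000398) and OAS3 by -0.19 ± 0.05 (adjusted p = 0.00826), and IFIT1 by -0.19 without passing the test (adjusted p = 0.0607). Smoke extract alone at 2 h lowered OAS1, OAS3 and RIGI (3.77% of all genes called, 1.74% higher and 2.04% lower), a count of 3 that fell to 1 without untreated 2 h replicate 1 or 2 and to 0 without smoke extract 2 h replicate 2. RIGI was lost in the last case only (adjusted p = 0.17). OAS1 was lost also without smoke extract 2 h replicate 1 (adjusted p = 0.082). With radiation alone at 2 h no member was called (0.304% of all genes), 2 having an unadjusted p under 0.05, and IRF1 was at 0.33 ± 0.10 (adjusted p = 0.235).

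Single agents at 24 h were measured on 3 arrays against 3. Radiation alone raised RIGI, HERC5 and TAP1 and lowered USP18, TAP2, IFI35, ISG20 and TAPBP, 8 members in all, when 21% of all genes were called, 10% higher and 11% lower. RIGI at 0.53 ± 0.12 (limma adjusted p = 0.000599) and TAP2 at -0.55 ± 0.08 (adjusted p = 3.79e-07) kept their calls on leaving out any array, and the other 6 lost theirs on leaving out at least 1. The count fell to 4 without untreated 24 h replicate 1 and to 5 without radiation 24 h replicate 2, which ended the calls of USP18 (adjusted p = 0.0718) and TAP1 (adjusted p = 0.147). TAPBP, at -0.23 (adjusted p = 0.0353), was at -0.06 in the third of its rows by mean level (adjusted p = 0.678), and was not called after quantile normalization (adjusted p = 0.175). HERC5 was not called after quantile normalization either (adjusted p = 0.0743). Smoke extract alone lowered OAS1, OAS2, IFI35, ISG20 and USP18, when 16.1% of all genes were called, 8.67% higher and 7.4% lower. The count of 5 fell to 3 without untreated 24 h replicate 1 or 3 or smoke extract 24 h replicate 3, while OAS1 at -0.40 ± 0.06 (adjusted p = 2.59e-06) and ISG20 at -0.34 ± 0.08 (adjusted p = 0.00209) kept their calls throughout.

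In nicotine-pretreated cells radiation raised 4 members and lowered 1 at 24 h (15.3% of all genes called, 8.6% higher and 6.66% lower), and in smoke extract-pretreated cells it raised 3 and lowered 3 (14.2%, with 4.22% higher and 9.96% lower). RIGI, OAS2 and TAP2 were called in both. The counts fell to 3 in the first case without nicotine 24 h replicate 1 or 2 or radiation + nicotine 24 h replicate 3, and to 3 in the second without smoke extract 24 h replicate 2. RIGI lost its call in the first without nicotine 24 h replicate 2 (adjusted p = 0.14) or radiation + nicotine 24 h replicate 1 (adjusted p = 0.0833), and in the second without any array but radiation + smoke extract 24 h replicate 1 (adjusted p up to 0.181). OAS2 lost its call in the first without nicotine 24 h replicate 1 or 3 or radiation + nicotine 24 h replicate 2 or 3, and in the second without replicate 2 of either group. Smoke extract lowered OAS1, OAS3 and IFI35 in irradiated cells (8.23% of all genes called, 2.55% higher and 5.68% lower). IFI35 lost that call without radiation 24 h replicate 1 (adjusted p = 0.0614).

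**Figure D4:**
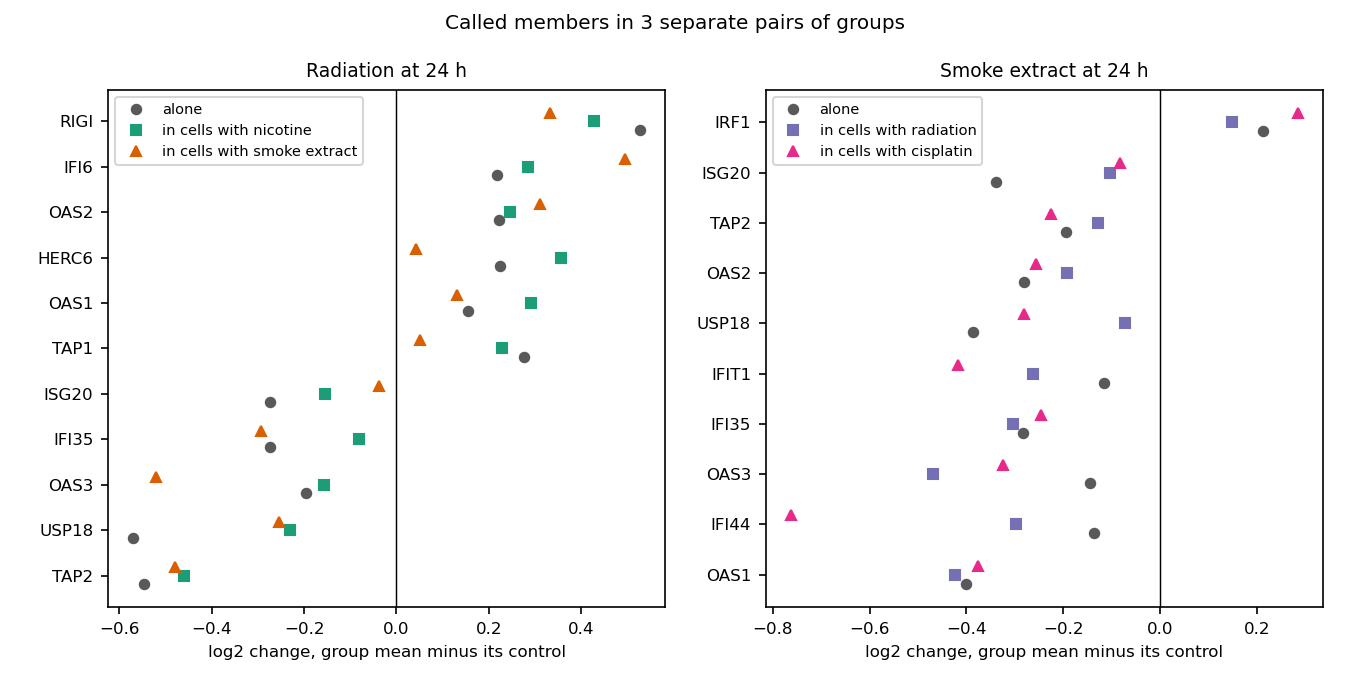
Log2 change at 24 h of the members called in the mean effect of radiation (left) and of smoke extract (right), shown separately for the 3 pairs of groups of 3 arrays that make up each mean. All 11 members on the left and all 10 on the right have their 3 points on 1 side of 0. The members were chosen by the mean of these same pairs, which favours such agreement. The points of TAP2 and of OAS1 lie close together and those of OAS3, IFI44 and USP18 are spread apart.

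Smoke extract in cisplatin-treated cells at 24 h was called in 11 members, 3 higher and 8 lower, when 28.6% of all genes were called, 14.6% higher and 14.1% lower. The mean of the olfactory receptor genes moved with it, from 4.55 to 4.79, the widest such shift of the 25 comparisons. With that mean as a covariate the count was 3, when 7.38% of all genes were called in that fit, 3.78% higher and 3.6% lower. For the settings that follow, the share of all genes called is not given here. After quantile normalization 0 were higher and 9 lower. Leaving out cisplatin 24 h replicate 3 brought the count to 4, and leaving out cisplatin + smoke extract 24 h replicate 1 to 5. OAS1 changed by -0.38 ± 0.06 (limma adjusted p = 7.88e-06) and kept its call in each of these settings.

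Cisplatin alone was called in no member at 24 h by limma, when 3.8% of all genes were called, 2.15% higher and 1.65% lower. At an unadjusted p under 0.05, a looser threshold than that of this share, there were 10 of the 34 members. The share of all genes at that looser threshold is not given here, so the 10 cannot be judged as many or few. The members with the smallest p were IFIT1 at 0.34 ± 0.11 (adjusted p = 0.0707) and IFIH1 at 0.39 ± 0.13 (adjusted p = 0.0709), both in the background range. Averaged over pretreatments, cisplatin lowered TAP2 and TAPBP at 24 h (5.03% of all genes called, 1.81% higher and 3.22% lower), with changes of -0.14 ± 0.04 (adjusted p = 0.0436) and -0.16 ± 0.05 (adjusted p = 0.0398). Of the 18 arrays, leaving out any of 12 ended the call of TAP2 and any of 14 that of TAPBP (adjusted p up to 0.113 and 0.117). The third row of TAPBP by mean level, which correlated with the one used at 0.754, was not called (adjusted p = 0.386). At 2 h no member was called with cisplatin alone or on average by limma, with 2 and 0 members at an unadjusted p under 0.05 (0.00543% and 0.0109% of all genes called).

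Nicotine, averaged over therapies, lowered IFI44L and RIGI at 24 h, when 5.21% of all genes were called, 0.782% higher and 4.43% lower. IFI44L, a paralog of IFI44, changed by -0.38 ± 0.09 (limma adjusted p = 0.0142) and RIGI by -0.24 ± 0.07 (adjusted p = 0.0327). With the olfactory receptor mean as a covariate neither was called (adjusted p = 0.0515 and 0.103), nor with the compared groups alone in the fit (adjusted p = 0.0978 and 0.111). IFI44L was not called without replicate 3 of radiation 24 h or of radiation + nicotine 24 h (adjusted p up to 0.0537), and RIGI without any of 8 of the 18 arrays (adjusted p up to 0.122). These 8 were untreated 24 h replicates 1 and 3, nicotine 24 h replicate 2, radiation 24 h replicate 3, radiation + nicotine 24 h replicates 2 and 3, cisplatin 24 h replicate 3 and cisplatin + nicotine 24 h replicate 3. With nicotine alone at 24 h, and with nicotine alone or on average at 2 h, limma called no member (0.00543%, 0% and 0% of all genes called), with 2, 0 and 1 members at an unadjusted p under 0.05. Untreated cells of 24 h against 2 h likewise had no called member (1.92% of all genes, 0.885% higher and 1.04% lower), with 5 at an unadjusted p under 0.05, the first being OAS1 at 0.16 ± 0.06 (adjusted p = 0.181).

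The effect of radiation at 24 h differed from that at 2 h in 10 members, 5 more positive and 5 more negative, when 23.4% of all genes differed, 11% more positive and 12.3% more negative. Among them RIGI differed by 0.47 ± 0.10 (limma adjusted p = 0.000156) and TAP2 by -0.45 ± 0.06 (adjusted p = 2.38e-07). For smoke extract the effects of the 2 times differed in 5 members (9.12% of all genes, 3.57% and 5.54% in the 2 directions), 2 more positive and 3 more negative. Interactions of smoke extract with radiation or with cisplatin at 24 h were called by limma in no member (2.57% and 0.152% of all genes), with 3 and 8 at an unadjusted p under 0.05.

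Beyond the module, 109 further genes of the interferon and antigen presentation pathways were measured of 123 listed. With radiation at 24 h 22 of them rose and 12 fell, and with smoke extract 12 rose and 23 fell, against 32.5% and 27.7% of all genes called. The largest changes with radiation were in TRIM22, an antiviral ubiquitin ligase that is also a p53 target, which stood between 4.86 and 6.24 on the irradiated arrays and between 4.29 and 4.61 on their controls, with no overlap. TRIM22 rose by 1.17 ± 0.10 (limma adjusted p = 4.52e-13), from a level in the background range. RNASEH2A, a subunit of the enzyme that removes ribonucleotides from DNA, changed by -0.67 ± 0.04 (adjusted p = 2.92e-17), SLFN11, which sensitises cells to DNA damage, by -0.62 ± 0.06 (adjusted p = 8.14e-12) and the scramblase gene PLSCR1 by -0.56 ± 0.10 (adjusted p = 9.35e-06). RNASEH2A and SLFN11 did not overlap between the 9 irradiated arrays and their 9 controls.

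With smoke extract at 24 h CD274, which encodes the immune checkpoint ligand PD-L1, ran from 5.69 to 6.98 with a median of 6.05. In cells with neither smoke extract nor nicotine it ran from 6.60 to 7.83 with a median of 7.15. The sets overlapped, and the change was -1.10 ± 0.13 (limma adjusted p = 1.28e-09), the widest of the 109 genes. IFI30, a lysosomal thiol reductase of antigen processing, ran from 8.59 to 8.98 against 7.91 to 8.27 in the same 2 sets and rose by 0.69 ± 0.05 (limma adjusted p = 2.19e-14). SAMHD1, a dNTPase that restricts viruses, changed by -0.52 ± 0.08 (adjusted p = 3.76e-07) and PLSCR1 by -0.48 ± 0.10 (adjusted p = 0.000167). At 2 h smoke extract raised 4 and lowered 10 of the 109, when 9.28% of all genes were called. CD274 changed then by -0.54 ± 0.13 (adjusted p = 0.0019) and SLFN5 by -0.53 ± 0.05 (adjusted p = 1.31e-11), while the kinase gene JAK2 rose by 0.50 ± 0.08 (adjusted p = 4.83e-06) and IFNLR1, a receptor chain for interferon lambda, by 0.46 ± 0.04 (adjusted p = 3.64e-12). With radiation at 2 h, when 1.35% of all genes were called, none of the 109 rose and 2 fell, PIAS1, an inhibitor of STAT signalling, with a change of -0.22 ± 0.04 (adjusted p = 0.000945), and IFNE with -0.52 ± 0.13 (adjusted p = 0.0155). IFNE, an interferon gene, lay in the background range and was not called without nicotine 2 h replicate 1, radiation 2 h replicate 1 or radiation + nicotine 2 h replicate 1 or 2 (adjusted p up to 0.0657).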

How the data were processed

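RNA of NCI-H460 cells was measured on 54 Affymetrix gene arrays. The deposited log2 values, 1 per probe set and array, were made with Affymetrix Power Tools 1.15.0, per the submitters' processing notes. Background correction, normalization and summarization are not given in the sources used here, and the log base was inferred from the values, with array medians from 6.43 to 6.63. Of 33297 rows, 19460 had 1 gene symbol in the platform annotation, 1754 several and 12083 none. The highest-mean row per symbol gave 18417 genes.

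Means of the 18 groups, named in the labels, were fitted to all 54 arrays with limma 3.58.1 in R 4.3.3 (lmFit, eBayes with an intensity trend, 36 residual degrees of freedom). p-values were adjusted by Benjamini-Hochberg over all genes within each of 25 comparisons and 2 F tests. Counts of members at an unadjusted p under 0.05 are not comparable with the shares of all genes called, which use the adjusted p. Shares of all genes at the unadjusted threshold are not given, so none of these counts can be judged as many or few. A mean effect averages 3 separate pairs of groups. The members, the lists and the tests were chosen with earlier results of these data known. Values are given for the called members with the largest change, for IRF1, ISG15, IFIT1, MX1, B2M and TAP1 whether called or not (as a range over the comparisons beside the main ones), and for up to 4 called genes of the wider list per comparison. The fit was tested on simulated data. The plate of each culture is not recorded in the labels, so its part in a difference was not tested. The number of arrays limits the precision.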

Additional observations from a re-analysis of the deposited data

Results flagged for a closer look

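The effect of radiation differed between 24 h and 2 h, by limma's test of that difference, in 10 members. The difference in log2 change, 24 h minus 2 h, was 0.24 for OAS1, 0.30 for OAS2, 0.37 for IFI6, 0.47 for RIGI and 0.20 for IRF9. It was -0.32 for OAS3, -0.23 for IFI35, -0.42 for USP18, -0.29 for IRF1 and -0.45 for TAP2. IRF1 alone among them was called at 2 h and not at 24 h. IFI6 (adjusted p = 0.0458) was not called on leaving out any of 23 of the 36 arrays, and IRF9 (adjusted p = 0.0283) on leaving out any of 5. These 5 were smoke extract 2 h replicate 3, radiation + smoke extract 2 h replicate 2, untreated 24 h replicate 1, radiation 24 h replicate 3 and radiation + nicotine 24 h replicate 1. The other 8 members were called without any of the 36.

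The effect of smoke extract differed between the times in 5 members, by -0.23 for OAS1, -0.26 for IFI35, 0.34 for RIGI, 0.28 for IRF1 and -0.20 for TAP2. TAP2 (adjusted p = 0.037) was not called on leaving out any of 17 of the 36 arrays, and IRF1 (adjusted p = 0.0247) was not called after quantile normalization (adjusted p = 0.0698).

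In the wider list the effect of radiation differed between the times by 1.20 in TRIM22, -0.71 in RNASEH2A, 0.69 in IFNE and -0.68 in SLFN11. That of smoke extract differed by 0.66 in SLFN5, 0.45 in IFITM1, -0.43 in JAK2 and -0.56 in CD274. CD274 (adjusted p = 0.0359) was not called on leaving out any of 16 of the 36 arrays. IRF2, a repressor that competes with IRF1, had an interaction of smoke extract with radiation at 24 h of 0.67 ± 0.15 (limma adjusted p = 0.00501), and was not called when only the compared groups were fitted (adjusted p = 0.0856).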

How the results depend on the processing

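No called change of a named gene reversed direction under any alternative, and 84 of 149 kept their call under all of them. Calls were lost in 6 without the intensity trend, 12 after quantile normalization, 12 with all rows, 3 with rows averaged, 15 with the olfactory receptor mean as a covariate, 10 without 4 arrays that stood apart in that mean, and 43 where the fit held the compared groups alone, which has fewer arrays to estimate the spread. Those 4 arrays, chosen after seeing the data, were nicotine 24 h replicate 2, radiation + smoke extract 24 h replicate 3, cisplatin + smoke extract 2 h replicate 3 and cisplatin 2 h replicate 3. Deviations of same-numbered arrays from their group means had a median correlation of 0.02 over 216 pairs. The correlations ran from -0.73 to 0.73, with 33.8% over 0.1, so some pairs deviated together and others in opposite directions. The replicate block ended 1 call, RIGI with radiation in smoke extract-pretreated cells (limma adjusted p = 0.0522).

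Counts of called members moved as follows, and the cause of these moves was not tested. The share of all genes called can move with the setting too. Where that share is not given below, a move cannot be taken as particular to the members. With only the compared groups the count was 0 for cisplatin mean and nicotine mean at 24 h and for radiation in nicotine-pretreated cells, 1 for radiation alone at 2 h, 2 for smoke extract in cisplatin-treated cells, 3 for radiation in smoke extract-pretreated cells, 5 for radiation alone at 24 h, 6 for untreated cells over time, 7 for smoke extract mean at 2 h, and 7 and 10 for the F tests of 2 h and 24 h. With genes above the median alone, members under it were not tested, and all 104 named calls tested there were kept. The count was then 0 for radiation mean at 2 h, 6 for smoke extract mean at 24 h and 5 for smoke extract in cisplatin-treated cells. With the covariate it was 3 for smoke extract in cisplatin-treated cells, 0 for nicotine mean at 24 h and 5 for the F test of 2 h. The covariate fit called 7.38% of all genes for smoke extract in cisplatin-treated cells, against 28.6% in the main fit. For nicotine mean at 24 h it called 2.09%, against 5.21%. Cisplatin mean at 24 h gave 1 without the trend or with rows averaged. Quantile normalization gave 2 for cisplatin alone at 24 h and 1 for untreated cells over time. Without the 4 arrays cisplatin alone gave 2 and radiation in nicotine-pretreated cells 3.

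Leaving out 1 array at a time gave 0 to 1 for cisplatin alone at 24 h, 0 to 4 for cisplatin mean and for nicotine mean at 24 h, 4 to 7 for radiation alone at 24 h, 3 to 5 for radiation in nicotine-pretreated and in smoke extract-pretreated cells, 1 to 1 for radiation mean at 2 h, 11 to 13 at 24 h and 8 to 10 for its change over time. For smoke extract it gave 0 to 3 alone at 2 h, 3 to 5 alone at 24 h, 2 to 3 in irradiated cells, 4 to 13 in cisplatin-treated cells, 4 to 6 for the mean at 2 h, 9 to 12 at 24 h and 4 to 5 for its change over time. The F tests gave 2 to 4 at 2 h and 14 to 19 at 24 h. Shares of all genes called in these fits are not given here, so the ranges cannot be taken as particular to the members. For the 14 members in the background range the signal limits what can be measured.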
